A study of Mus musculus with 2 samples.

Results

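The tumour necrosis factor (TNF) ligands and their receptors were described in total RNA from the thymus of newborn mice. The family was taken as all protein-coding genes whose GENCODE M21 symbol starts with Tnfsf or Tnfrsf, together with Tnf, Lta, Ltb, Ltbr, Cd40, Cd40lg, Cd27, Cd70, Fas, Fasl, Eda, Edar and Eda2r. This gave 45 genes, 19 ligands and 26 receptors, of 21474 protein-coding genes matched in the tables, and each of the 45 was found in both. The rule uses names and no measured value, although it was set with earlier results of these data known.

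The 2 libraries came from the thymus of B6NCrl mice on postnatal day 0, each made from both lobes of 1 pup, and the labels assign both pups to the same pregnant female. No treatment is given and sex was not collected. They form 1 group of 2 replicates, so no condition could be compared and no p-value was computed. The labels give both pups the same donor identifier, and the spread between them holds animal and technical differences together. The libraries held 39046411 and 41576822 expected counts (replicates 1 and 2), and with this depth the true level of a gene without counts may reach 3 counts, which is 0.0768 and 0.0722 CPM (counting error only). Levels are TPM, a relative abundance per transcript length, and a gene was called detected at a TPM of at least 1 in both libraries.

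Markers of the organ's cells were in place for most lists. Thymocyte genes (Cd3e, Cd8b1, Rag1 and Ptcra) summed to 1758 and 1892 TPM, cortical epithelial genes to 610 and 680 TPM, and medullary epithelial genes to 445 and 478 TPM, all detected. Mesenchymal genes summed to 213 and 247 TPM, macrophage genes to 123 and 133 TPM and endothelial genes to 60.1 and 61.2 TPM. A single gene made up most of several sums, so the sums do not rank the cell types. Such genes were Prss16 (cortical, 524 and 556 TPM), Ccl21a (medullary, 337 and 374), Col3a1 (mesenchymal, 144 and 165) and C1qb (macrophage, 102 and 110). Others were Cd8b1 (thymocyte, 1020 and 1063), Pecam1 (endothelial, 50.1 and 51.2), Il2ra (regulatory T-cell, 37.9 and 42.4) and Tcrg-C1 (gamma-delta T-cell, 221 and 300). In the medullary list Aire had 7.22 and 8.34 TPM, and in the mesenchymal list Pdgfra had 1.27 and 1.65 TPM. Dendritic cell genes were low at 6.68 and 6.31 TPM, with 3 of 4 detected. The B-cell genes Ms4a1 and Cd79a were not detected. The regulatory T-cell list summed to 47.2 and 53.1 TPM without Foxp3 being detected, and the gamma-delta T-cell list to 234 and 313 TPM with 2 of 3 genes detected. In whole tissue, fewer cells of a type and less RNA per cell cannot be told apart.

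TNF ligands are trimeric, mostly membrane-bound proteins that cluster receptors on a neighbouring cell. Receptors with a death domain recruit adaptors that can start caspase-driven death, and the others recruit TRAF adaptors and activate NF-kB. In the thymus the family is known for crosstalk between the compartments, in which thymocytes and innate lymphoid cells present RANK ligand (Tnfsf11), CD40 ligand and lymphotoxin to medullary epithelium, which needs these signals to mature. Other members act on T cells as costimulators, and others on B cells as survival factors.

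Of the 45 genes 33 were detected (73.3%), beside 57.3% of all protein-coding genes, and 44 had at least 1 count in each library. Receptors stood higher than ligands as a group: 22 of 26 receptors and 11 of 19 ligands were detected, with medians of 7.22 and 1.52 TPM over all members of each role. Summed receptor RNA was 577 and 490 TPM and summed ligand RNA 175 and 152 TPM, and the larger part of the ligand sum was Ltb alone. Among the 10 highest members 9 were receptors. The median of the detected members was 6.20 TPM, below the 17.3 TPM of detected protein-coding genes, so most of the family lay at modest levels under a few abundant genes.

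By gene TPM the order at the top was clear between libraries. Cd27, Ltb, Fas, Tnfrsf1a, Tnfrsf13b and Tnfrsf25 followed each other with no overlap of neighbouring ranges, and each of them lay above Ltbr and Cd40, which overlapped with each other. By protein-coding transcripts alone Tnfrsf25 (26.5 and 21.7 TPM) overlapped with Ltbr (24.4 and 24.0 TPM), and Cd27 overlapped with Ltb. Further down the order was loose, with overlapping ranges for 26 of all 44 neighbouring pairs.

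**Figure D1:**
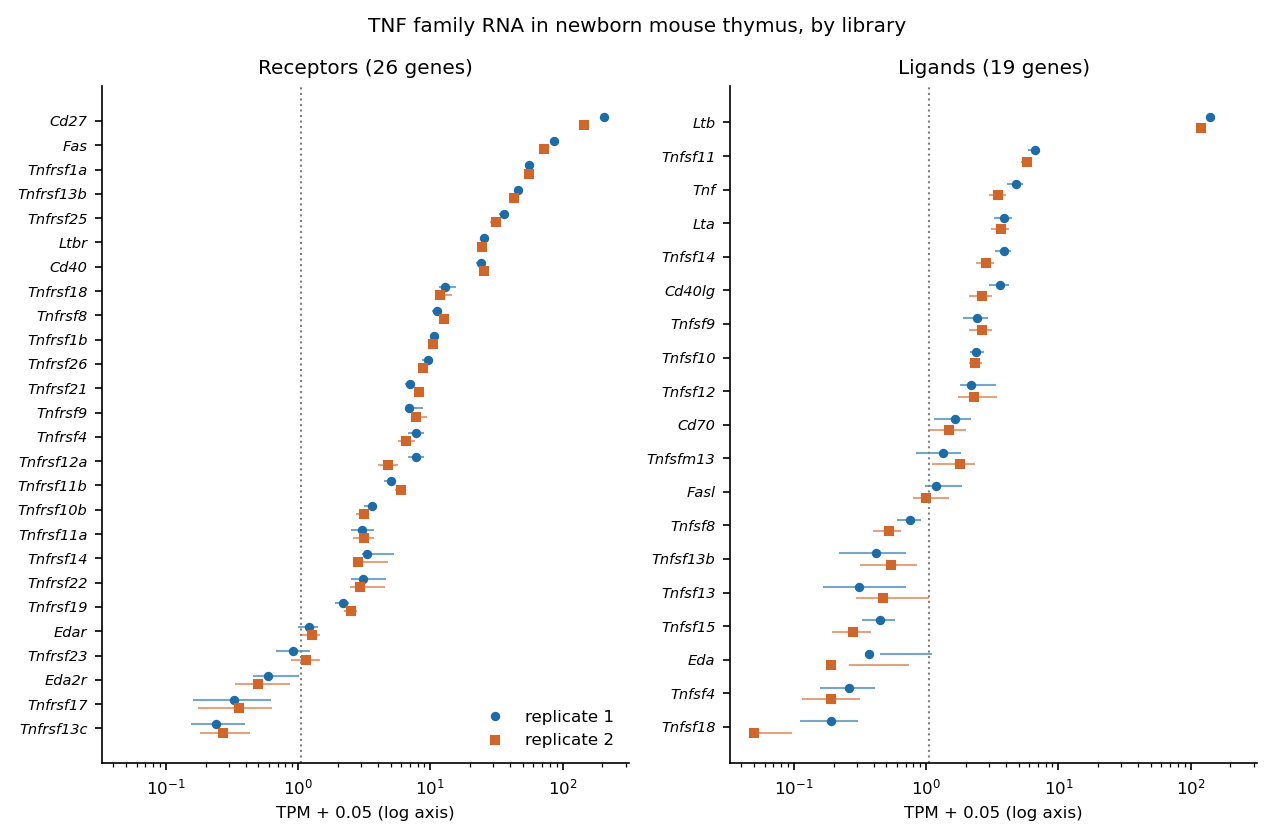
TPM + 0.05 of each member (log axis) in replicate 1 (circles) and replicate 2 (squares), with receptors on the left and ligands on the right. Horizontal lines are the deposited credibility bounds and the dotted line marks 1 TPM; Ltb is the single ligand above 10 TPM, while 10 receptors are.

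All 9 members with a known part in medullary signalling were detected, at a median of 5.44 TPM. Of all protein-coding genes 57.3% were detected, which is the background for this and the other groups of members below. Ltb (chromosome 17, 35194439 to 35196320), the membrane anchor of the lymphotoxin heterotrimer, reached 139 TPM in replicate 1 and 120.4 TPM in replicate 2 (mean 130 ± 13.1 SD, n = 2). Lta, the subunit that Ltb needs for that complex, had 3.86 and 3.65 TPM. The 2 subunits of 1 complex therefore differed 34.5-fold in mean level. Their receptor Ltbr, which signals through TRAF proteins in stroma, had 25.4 and 24.6 TPM. Tnfsf14 (LIGHT), another ligand of Ltbr, had 3.83 and 2.79 TPM.

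Cd40lg, the T-cell ligand of Cd40, had 3.56 and 2.59 TPM from 121 and 95 counts. Its receptor Cd40, found on epithelium and antigen-presenting cells, had 24.1 and 25.6 TPM. Both libraries placed the receptor 6.76- and 9.87-fold over the ligand. Tnfsf11, which drives growth of Aire-expressing epithelium, had 6.62 and 5.77 TPM and was the second ligand in the order. Tnfrsf11b (osteoprotegerin), the secreted decoy that captures Tnfsf11, had 4.96 and 5.91 TPM. The ligand was thus the higher of these 2 in replicate 1 and the decoy in replicate 2, so their order did not hold between pups.

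The signalling receptor of Tnfsf11, Tnfrsf11a (RANK, chromosome 1, 105780718 to 105847981), had 3.01 and 3.08 TPM by gene. A 1041-base transcript annotated as a retained intron, Tnfrsf11a-203, held 65.6% and 73.2% of this level, and 29.3% and 34.2% of the gene's expected counts, which are not divided by length. This transcript was singled out after its values were seen. The only protein-coding transcript, Tnfrsf11a-201 of 5027 bases, stood at 0.890 and 0.830 TPM, under the detection threshold, from 130 and 129.5 counts. By protein-coding transcripts alone 32 members of the family were detected, and Tnfrsf11a was the 1 that was lost.

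The stretches where both transcripts part are shown because the level of RANK turns on them, from GENCODE M21 transcripts on GRCm38 (mm10), as are all sequences here. Lower case marks the shared 40 bases at the end of an exon (chr1:105813755-105813794, plus strand) and capitals mark what follows, the next exon from base 105817669 in Tnfrsf11a-201 and the intron in Tnfrsf11a-203, where it starts with GT, the first bases of a splice donor.
Tnfrsf11a-201: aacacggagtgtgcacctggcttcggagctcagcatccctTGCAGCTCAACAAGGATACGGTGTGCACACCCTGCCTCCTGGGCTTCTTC
Tnfrsf11a-203: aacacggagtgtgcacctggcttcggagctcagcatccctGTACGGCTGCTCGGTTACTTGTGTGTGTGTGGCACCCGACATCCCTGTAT
Of the 1041 bases of Tnfrsf11a-203, 609 are not exonic in Tnfrsf11a-201.

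Among the 13 costimulatory members 9 were detected, with 7 of 7 receptors and 2 of 6 ligands. Cd27 (chromosome 6, 125232622 to 125237010), a receptor carried by T cells from early in their development, was the highest member of the family, with 207 TPM in replicate 1 and 144 TPM in replicate 2 (mean 176 ± 44.3 SD), and stood at percentile 96.0 of protein-coding genes. Cd70, its ligand, had 1.60 and 1.44 TPM from 35 and 34 counts. The receptor was 129- and 100.2-fold over the ligand.

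Part of the Cd27 level, and most of its difference between the pups, lay in a retained-intron transcript as well. Cd27-206 had 78.5 and 35.0 TPM (37.9% and 24.2% of the gene, or 22.8% and 13.2% of its expected counts), while the full coding transcript Cd27-201 had 110.0 and 96.0 TPM. Summed over protein-coding transcripts Cd27 had 123 and 106 TPM, and Ltb, with 130.3 and 114 TPM, then overlapped with it and had the higher mean. Retained-intron transcripts of all genes together took 4.40% (replicate 1) and 3.95% (replicate 2) of TPM, the same direction as for Cd27-206, and their part in the Cd27 difference was not tested.

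The point at which the Cd27 transcripts part (chr6:125236473-125236512, minus strand) is shown in the same way, with the next exon, or the retained intron, in capitals.
Cd27-201: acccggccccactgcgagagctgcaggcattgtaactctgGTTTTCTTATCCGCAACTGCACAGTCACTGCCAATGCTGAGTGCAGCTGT
Cd27-206: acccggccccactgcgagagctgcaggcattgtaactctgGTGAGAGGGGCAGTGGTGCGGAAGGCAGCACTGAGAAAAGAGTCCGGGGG
The intron keeps its GT start, as in Tnfrsf11a-203, and 365 of the 744 bases of Cd27-206 lie outside the exons of Cd27-201.

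The death-domain receptor Tnfrsf25, a costimulator of T cells, had 36.1 and 31.1 TPM, whereas its ligand Tnfsf15 had 0.400 and 0.230 TPM. Tnfrsf18 (GITR), abundant on regulatory T cells, had 12.9 and 11.7 TPM. Its ligand Tnfsf18 was the lowest member, with 8 counts in replicate 1 and 0 in replicate 2. The neighbouring receptor Tnfrsf4 had 7.79 and 6.52 TPM and its ligand Tnfsf4 0.210 and 0.140 TPM, from 11 and 8 counts. Of the regulatory T-cell list in the same libraries, Foxp3, which defines these cells, was at 0.0900 and 0.110 TPM, while Il2ra (37.9 and 42.4 TPM) and Ctla4 (9.30 and 10.7 TPM), which other T cells also express, were detected.

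Tnfrsf8 (CD30) had 11.2 and 12.6 TPM against 0.700 and 0.470 TPM for its ligand Tnfsf8. Tnfrsf9 had 6.90 and 7.67 TPM, and its ligand Tnfsf9 had 2.37 and 2.58 TPM, a ratio of 2.91 and 2.97. Tnfsf9 shares 14.9% of its exonic bases with Gm11110, a noncoding gene on the other strand at 3.01 and 2.61 TPM, and without knowledge of strand their reads could not be told apart there. Tnfrsf14, which binds Tnfsf14 and Lta, had 3.27 and 2.78 TPM, below both ligands in each library, although its ratio to Tnfsf14 in replicate 2 was 0.996, practically level. The deposited posterior mean TPM, a second estimate of the level, gave another order. By it Tnfrsf14 had 4.11 and 3.59, above Tnfsf14 (3.78 and 2.75) in both libraries. Against Lta (3.81 and 3.61) it was higher in replicate 1 and lower in replicate 2.

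Of the 11 members of the death and inflammation group 9 were detected, and 2 of them were among the 4 highest of the family. Fas, the receptor by which Fas ligand kills lymphocytes, had 86.3 and 71.95 TPM (mean 79.1 ± 10.2). Fasl had 1.14 and 0.940 TPM, on both sides of the detection threshold, and was called not detected. By posterior mean TPM Fasl had 1.34 and 1.07, above the threshold in both libraries, and Fas had 84.75 and 70.8. By TPM the Fas level was 75.7- and 76.5-fold over that of Fasl, close in both pups, and by posterior mean TPM the fold was smaller. The full transcript Fas-201 held 83.9% and 87.2% of the gene's TPM.

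Tnfrsf1a, the widely expressed death-domain receptor of TNF, had 55.8 and 55.7 TPM. Tnfrsf1b, the TNF receptor of immune cells, which lacks a death domain, had 10.6 and 10.4 TPM. Their ligand Tnf had 4.69 and 3.47 TPM from 213 and 170 counts. TNF receptors thus exceeded their ligand in both pups.

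The TRAIL system was low on both sides. Tnfsf10 (TRAIL) had 2.33 and 2.29 TPM, and its death receptor Tnfrsf10b had 3.55 and 3.08 TPM. The mouse decoy receptors Tnfrsf22 and Tnfrsf23 had 3.03 and 2.91 TPM and 0.870 and 1.10 TPM. Of Tnfrsf23, a transcript annotated as subject to nonsense-mediated decay, also singled out after its values were seen, took 59.1% and 69.8%. Tnfrsf26, which lies beside these decoys, was the highest of the 3 at 9.49 and 8.82 TPM. Tnfrsf21, a death-domain receptor, had 6.96 and 8.22 TPM.

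Of the 6 members of B-cell survival 2 were detected, at a median of 0.385 TPM over all 6. Tnfrsf13b (TACI, chromosome 11, 61126755 to 61149372), a receptor of BAFF and APRIL known from B cells and plasma cells, had 45.6 and 42.5 TPM from 2601 and 2755 counts (mean 44.0 ± 2.14), and was the fifth member in the order. The other receptors of these ligands, Tnfrsf13c (BAFF receptor) and Tnfrsf17 (BCMA), had 0.190 and 0.220 TPM and 0.280 and 0.310 TPM. Their ligands Tnfsf13b (BAFF) and Tnfsf13 (APRIL) had 0.370 and 0.490 TPM and 0.260 and 0.420 TPM, none of them detected. The B-cell genes Ms4a1 (0.240 and 0.230 TPM) and Cd79a (1.20 and 0.880 TPM) were not detected either.

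Most expected counts of Tnfrsf13b were assigned to its main coding transcript, Tnfrsf13b-201, with 90.9% and 93.7%, and a noncoding processed transcript, Tnfrsf13b-205, had 8.38% and 5.31%. By TPM, which divides by length, Tnfrsf13b-201 held 71.6% and 77.6% of the gene at 32.6 and 33.0 TPM, and Tnfrsf13b-205 held 24.4% and 16.3%. No other gene in GENCODE M21 shares exonic bases with it, and the deposited posterior SD of its count was 0 in both libraries. By coding transcripts alone it stayed the fourth receptor in the order.

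The APRIL gene lies in a compact group with Tnfsf12 (TWEAK) on chromosome 11. Among the 6 members with roles in epithelium and stroma 4 were detected. Tnfsf12 had 2.15 and 2.24 TPM and its receptor Tnfrsf12a, found on epithelial and stromal cells, 7.77 and 4.77 TPM. Tnfsfm13, annotated as a joined gene that reads from Tnfsf12 exons into Tnfsf13 exons, had 1.28 and 1.75 TPM, more than Tnfsf13 itself in both pups. It shares 44.0% of its exonic bases with Tnfsf13 and 32.7% with Tnfsf12, and the posterior SD of its count was 7.49 of 63.7 counts and 10.4 of 87.1 counts, so the split among these 3 genes is uncertain.

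The join is shown because it is what separates Tnfsfm13 from Tnfsf12, and no Tnfsf13 transcript is shown. Lower case marks 40 shared bases (chr11:69686957-69686996, minus strand) and capitals mark the continuation, within the same Tnfsf12 exon in Tnfsf12-202 and, after a gap of 1826 bases, inside the Tnfsf13 gene in Tnfsfm13-202.
Tnfsf12-202: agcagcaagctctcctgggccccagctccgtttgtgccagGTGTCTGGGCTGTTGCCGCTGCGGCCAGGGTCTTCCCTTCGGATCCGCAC
Tnfsfm13-202: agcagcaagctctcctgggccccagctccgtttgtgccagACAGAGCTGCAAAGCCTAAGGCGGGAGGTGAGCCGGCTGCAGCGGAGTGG
In Tnfsf12-202 the continuation begins with GT, as in both retained introns.

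The ectodysplasin system, known for hair, tooth and gland development, was close to the limit of detection. Edar had 1.16 and 1.23 TPM and was detected, while Eda2r had 0.540 and 0.450 TPM. Eda itself had 45 and 22 counts. Its longer and shorter spliced forms choose between Edar and Eda2r. These counts were assigned to Eda-207 and Eda-205 in replicate 1 and to Eda-208 in replicate 2, so no transcript was shared between libraries. Which of these transcripts encode the longer or the shorter form was not determined. The deposited Eda levels of 0.320 and 0.140 TPM lay below their own deposited lower bounds of 0.396 and 0.210 TPM, and the level is uncertain. Tnfrsf19, a receptor of epithelial and mesenchymal progenitors, had 2.14 and 2.48 TPM.

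Ligands were paired with their known receptors in 30 pairs, which hold 18 ligands and 23 receptors. Both genes were detected in 17 pairs. The receptor was higher than the ligand in both pups in 21 pairs and the ligand higher in both in 7, and in 2 pairs the order changed between pups. In 8 pairs a detected receptor faced a ligand that was not detected: Fas, Tnfrsf4, Tnfrsf8, Tnfrsf13b (with both of its ligands), Tnfrsf18, Tnfrsf25 and Edar. The opposite held for 1 pair, Tnfsf10 with its decoy Tnfrsf23, and in 4 pairs neither was detected. Whole-tissue RNA does not place the 2 sides of a pair on particular cells.

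The pairs in which the ligand led were of a few kinds. Ltb exceeded Ltbr, which stood at 0.183 and 0.204 of the ligand's level. Tnfsf11 exceeded Tnfrsf11a, with ratios of 0.455 and 0.534. The others were Lta and Tnfsf14 over Tnfrsf14, Tnfsf10 over Tnfrsf23, and Tnfsf13b over Tnfrsf13c and Tnfrsf17, where all 3 genes lay under 0.5 TPM. The lead of Lta and Tnfsf14 over Tnfrsf14 did not hold by posterior mean TPM, as given above. By protein-coding transcripts alone Tnfrsf11a stood lower still against Tnfsf11, at 0.890 and 0.830 TPM.

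**Figure D2:**
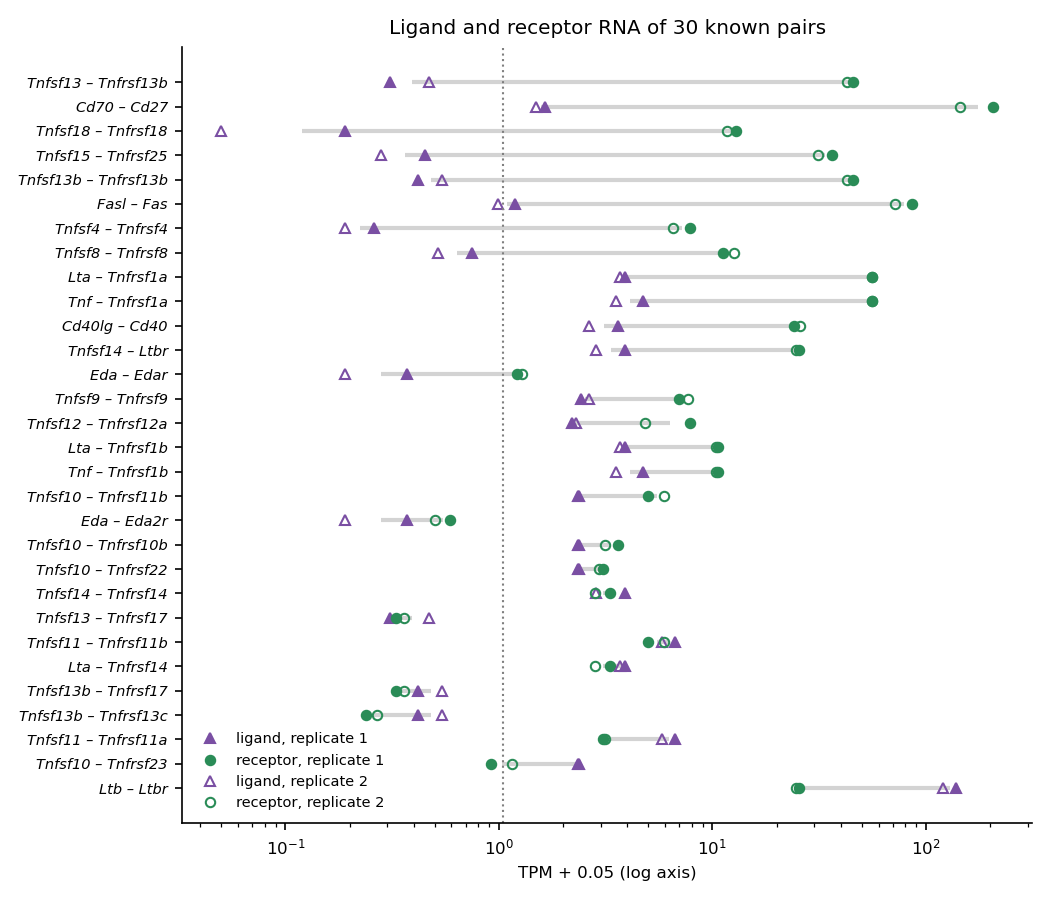
TPM + 0.05 (log axis) of the ligand (triangles) and the receptor (circles) in 30 known pairs, filled for replicate 1 and open for replicate 2, ordered by the ratio of their means, with grey lines that join the means and a dotted line at 1 TPM. Receptors lie to the right in most pairs, and Ltb with Ltbr at the bottom is the widest exception.

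Of the 45 genes 24 lie in 9 groups of neighbours no more than 1000 kb apart. The 3 receptor genes Cd27, Ltbr and Tnfrsf1a lie within 130 kb of chromosome 6, and all had mean levels of at least 24.975 TPM. Tnfrsf1b with Tnfrsf8 (10.5 and 11.9 TPM on average) and Tnfrsf4 with Tnfrsf18 (7.16 and 12.3 TPM) on chromosome 4 were alike within a factor of 1.72. Ligand groups were low throughout in 4 cases. Tnfsf4, Tnfsf18 and Fasl on chromosome 1 reached at most 1.04 TPM, Tnfsf15 and Tnfsf8 on chromosome 4 at most 0.585 TPM, Tnfsfm13, Tnfsf13 and Tnfsf12 at most 2.20 TPM, and Tnfsf9, Cd70 and Tnfsf14 on chromosome 17 at most 3.31 TPM. Within a group the highest gene was 6.46- to 14.9-fold over the lowest in 4 of the 9 groups, 2 of them among these low ligand groups. They were the Tnfsfm13 group (6.46-fold), the Cd27 group (7.03-fold), the group of Tnfrsf26, Tnfrsf22 and Tnfrsf23 on chromosome 7 (9.29-fold) and the Tnfsf4 group (14.9-fold). The lowest gene of the Tnfsf4 group, Tnfsf18, had 8 and 0 counts, and that of the Tnfsfm13 group, Tnfsf13, had 10.3 and 18.4, so these 2 folds are uncertain. The group of Ltb, Tnf and Lta had the widest range of the 9, since within 10.9 kb of chromosome 17 Ltb was 34.5-fold over Lta.

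All 22 genes of a chosen list of intracellular and shedding partners were detected, beside 57.3% of all protein-coding genes. Their median was 26.2 TPM, beside 17.3 TPM for detected protein-coding genes, and lay above most of the receptors they serve. Among TRAF adaptors, Traf2 (48.4 and 48.0 TPM), which most receptors of the family use, and Traf4 (47.1 and 48.4 TPM) led, and the other 4 lay between 9.86 and 11.8 TPM on average. Traf6, which RANK and CD40 need, had 11.1 and 12.5 TPM.

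Of the death-domain partners, Cflar, the inhibitor of caspase-8, had 96.2 and 81.6 TPM and exceeded Casp8 itself (55.8 and 46.8 TPM) in both pups. Fadd, the adaptor that joins Fas to caspase-8, was the lowest of this list at 6.87 and 8.25 TPM. Tradd, the adaptor of Tnfrsf1a and Tnfrsf25, had 41.2 and 46.5 TPM. Edaradd, the adaptor of Edar, had 13.5 and 11.0 TPM although Edar stood near 1 TPM.

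Among genes of ubiquitin signalling at the receptor complexes the highest were Rbck1 (114 and 109 TPM) and Sharpin (72.7 and 66.4 TPM), both of the linear ubiquitin complex, whose catalytic partner Rnf31 had 13.3 and 11.5 TPM. The brake Tnfaip3 (A20), an NF-kB target, had 21.9 and 22.9 TPM. The protease Adam17, which sheds Tnf and other members, had 24.1 and 25.5 TPM, and Adam10 had 49.7 and 46.8 TPM.

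A mean expected count of at least 50 was reached by 35 members, and 0 of these differed over 2-fold between the scaled libraries, beside 1.35% of 14155 genes. Over 1.5-fold stood 1 member, Tnfrsf12a, beside 4.75% of genes, with 198 and 131 counts and a log2 ratio of replicate 2 over replicate 1 of -0.66. These shares are near what all genes showed, and with 1 library per pup a difference has no replicate check. The median log2 ratio was -0.02 over the members and 0.02 over all genes tested, with 19 members higher in replicate 1 and 16 in replicate 2. Regardless of sign, the median absolute log2 ratio was 0.18 over the members and 0.13 over all genes tested.

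Of 12 ligands 9 were higher in replicate 1, with a median of -0.17, and of 23 receptors 10 were, with a median of 0.02. The median of all genes tested was 0.02, and their split by direction is not given here. Several ligands rest on few counts, such as Tnfsf8 (77 and 55) and Fasl (62 and 55). Scaled on spike-in RNA, the median of all members was 0.67 and that of all genes 0.71. Both directions therefore hold only relative to the bulk of genes. Tnf (-0.39), Tnfsf14 (-0.41), Cd40lg (-0.41) and Tnfsf8 (-0.55), ligands made by activated lymphocytes among other cells, were the ligands furthest down. Against them Tnfrsf23 (0.48), Tnfsfm13 (0.38), Tnfrsf11b (0.30), Tnfrsf21 (0.28) and Tnfrsf19 (0.25) were higher in replicate 2. Tnfrsf12a, found on epithelial and stromal cells, went the other way (-0.66). Most marker lists were higher in replicate 2 by their median log2 ratio. These were the cortical epithelial (0.56), mesenchymal (0.27), regulatory T-cell (0.25), medullary epithelial (0.16), gamma-delta T-cell (0.14), macrophage (0.12), thymocyte (0.12) and endothelial (0.08) lists. In the direction of the ligands were the innate lymphoid markers Ncr1 (-0.50), Il23r (-0.35) and Il1r1 (-0.22), and the B-cell marker Cd79a (-0.40, with Ms4a1 at 0.00). The dendritic cell list was too, at a median of -0.13, although its member Zbtb46 stood at 0.22. The part of these cells in the ratios was not tested.

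**Figure D3:**
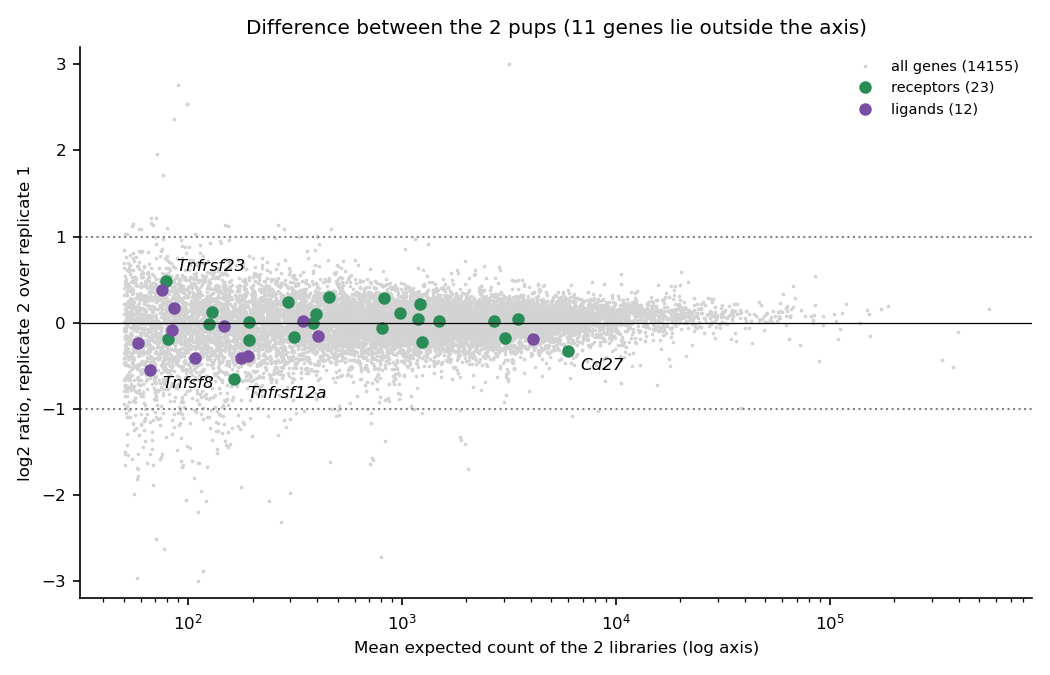
Log2 ratio of replicate 2 over replicate 1 against the mean expected count (log axis) for 14155 genes (grey), 23 receptors (green) and 12 ligands (purple), with dotted lines at 2-fold; 11 genes lie outside the axis. All members lie between the dotted lines, Tnfrsf12a lowest at -0.66 and Tnfrsf23 highest at 0.48.

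Retained introns and other noncoding forms affected a minority of the family. Of 34 members with a mean of at least 1 TPM, protein-coding transcripts held at least 90 percent of the level in 27 and under 50 percent in 1, Tnfrsf11a. For Tnfrsf25, Tnfrsf4 and Tnfrsf13b the coding share was 71.7%, 76.9% and 74.5% on average, and the remainder was in transcripts annotated as processed.

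Cd40 was divided among coding forms. Cd40-202 held 50.3% and 45.7% of its TPM, Cd40-203 held 21.7% and 28.7% (9.51% and 12.7% of expected counts), and a form marked for nonsense-mediated decay, Cd40-207, 15.6% and 16.0%. The longer coding form Cd40-201 held 8.89% and 9.72% of TPM. By expected counts it held 19.8% and 21.9%, more than Cd40-203. In mouse, Cd40 is known to make spliced forms that lack the membrane anchor. The point where Cd40-202 and Cd40-203 part (chr2:165063522-165063561, plus strand) is shown with the continuation in capitals, from base 165066503 in Cd40-202 and from base 165069629 in Cd40-203.
Cd40-202: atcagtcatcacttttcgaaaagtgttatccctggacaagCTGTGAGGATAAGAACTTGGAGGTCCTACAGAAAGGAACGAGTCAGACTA
Cd40-203: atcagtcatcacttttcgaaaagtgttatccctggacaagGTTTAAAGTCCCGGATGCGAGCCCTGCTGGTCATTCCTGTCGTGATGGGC
Both continuations are annotated as coding, and neither is exonic in the other transcript.

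**Figure D4:**
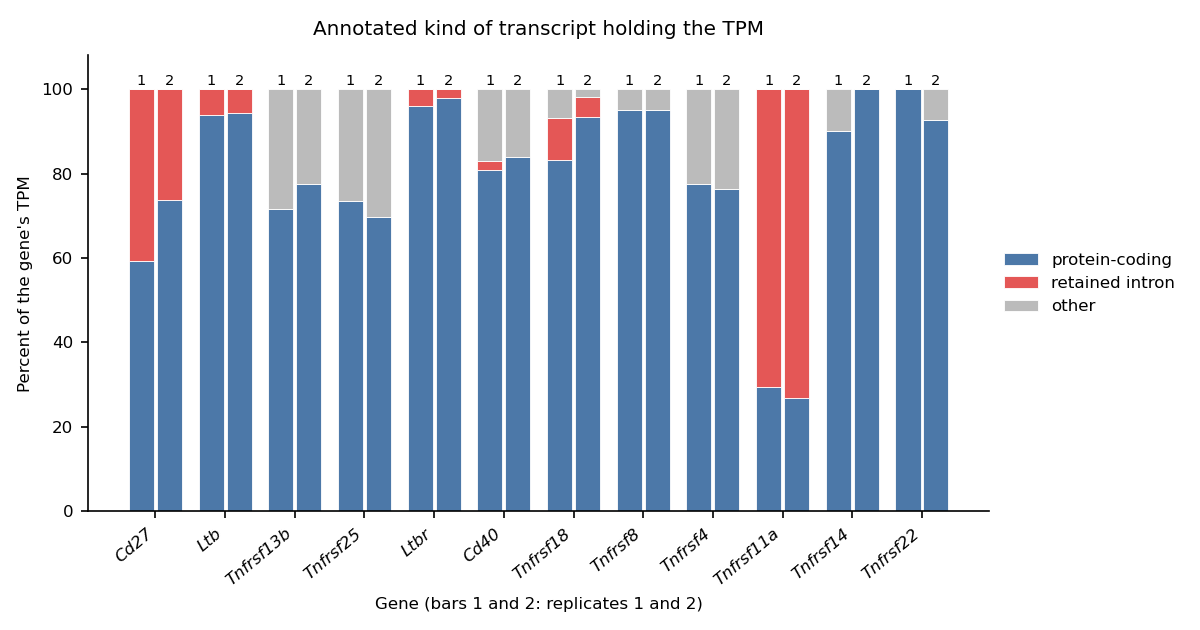
Percent of each gene's TPM in protein-coding (blue), retained-intron (red) and other (grey) transcripts for the 12 members with a mean of at least 1 TPM and a coding share under 97%, with bars 1 and 2 for the replicates. Tnfrsf11a is mainly red in both libraries, and Cd27 has a larger red part in replicate 1 than in replicate 2.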

How the data were processed

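Total RNA from the thymus of 2 newborn pups was sequenced with spike-in RNA added, per the labels. The authors deposited gene and transcript tables per library with expected counts (estimated, not normalized), TPM (per length, scaled to a fixed sum), FPKM, and, per transcript, the percent of its gene's TPM. Per the file headers the tables also hold credibility bounds of TPM and the posterior SD of the count (signal columns), with no credibility level stated. The build was mm10 and the annotation M4, per the deposited read-me, and aligner, quantifier and strandedness were not given in the sources used here. Names, coordinates and transcript kinds came from GENCODE M21 by identifier (42462 of 43346 genes matched). Rows that name no gene held 0.00179% and 0.00107% of counts, spike-ins included, and were left out of the ratios. Ratios between pups used edgeR 4.0.16 TMM scaling on rounded expected counts with a prior count of 0.5, for genes with a mean of at least 50. DESeq2 1.42.0 size factors, other thresholds and other scalings were alternatives. No test was possible with 1 group. The ratio calculation alone was tested on simulated data, which held counting error only and were scaled by total counts instead of TMM. Any member and any gene of the lists could be named, and transcripts for members with a mean of at least 1 TPM and at least 2 coding transcripts, or for Eda. The members and lists were chosen with earlier results of these data known. The marker lists of B cells and innate lymphoid cells are not reported in full here. Depth limits the low members, and counts cover counting error only.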

Additional observations from a re-analysis of the deposited data

Results flagged for a closer look

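Tnfsf13os, a noncoding gene on the strand opposite Tnfsf13 and outside the family, had expected counts of 16.3 and 18 (replicates 1 and 2). Both exceed 3 counts, the limit for a gene with none. It shares 13.5% of the exonic bases of Tnfsf13, whose own counts were 10.3 and 18.4, and 11.3% of those of Tnfsfm13.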

How the results depend on the processing

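The number of members detected lay between 30 and 41 over the other thresholds tried, of ligands between 9 and 16, of receptors between 21 and 25 and of pairs with both genes detected between 16 and 24, and all 22 signalling genes were detected under each. With 1 replicate left out these counts were 34, 11 to 12, 22 to 23, 18 and 22. Scaled on spike-in RNA, which rests on 659 and 427 counts, 2 members (Tnfrsf23 and Tnfsfm13) and 1007 genes were over 2-fold apart, the median log2 ratio of the members was 0.67 beside 0.71 over all genes, and 977 of these genes were higher in replicate 2, whereas with TMM scaling 163 of 191 were higher in replicate 1. With a mean count of at least 10, 1 member (Eda) and 840 genes were over 2-fold apart, with at least 500, 21 genes, as each setting tests other genes. At 1.5-fold, a threshold added after seeing the data, it was 1 member and 672 genes. Protein-coding transcripts alone, also added later, lowered Cd27, Eda2r, Tnfrsf11a and Tnfrsf23 by over 1.5 times. Posterior mean TPM, added later too, moved the level of 12 members beyond the spread between pups, Tnfrsf14 among them. Transcript shares taken from expected counts instead of TPM moved beyond the spread between pups for 10 of 12 transcripts, since counts are not divided by length. The cause of the other shifts was not tested. No paired analysis was possible because the samples form 1 group.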
